A study of Mus musculus with 10 samples.

Results

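The mRNA of *Trp53*, the gene of the transcription factor p53, and of 9 genes that p53 activates was measured in the cortical hem (CH) of wild-type and *Lmx1a-/-* mouse embryos at e13.5. The 9 targets are *Mdm2*, *Ccng1*, *Bax*, *Bbc3*, *Pmaip1*, *Phlda3*, *Trp53inp1*, *Sesn2* and *Zmat3*. They were chosen by name for what is known of them, to ask whether the lower *Cdkn1a* of the mutant CH comes with lower p53 targets. These 10 genes are 10 of the 52227 genes counted, and all 10 were among the 21664 genes with enough reads to be tested (at least 10 counts in at least 3 libraries).

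The CH is the dorsomedial edge of the embryonic cortex, a source of Wnt and BMP signals and of Cajal-Retzius (CR) cells, and Lmx1a is a LIM homeodomain transcription factor made there. The groups were 5 wild-type and 5 *Lmx1a-/-* embryos, the latter homozygous for the dreher drJ allele, which the study uses as a null. All were kept on 1 mixed background of C57Bl6, FVB and CD1, received no treatment, and the study used both sexes. The CH of each embryo was cut by laser from frozen sections, with Lmx1a staining of the alternate sections to find its borders, and the pieces of 1 embryo were pooled into 1 RNA-seq library. The *Lmx1a* mRNA itself does not tell the genotypes apart by absence, since it lay between 45.6 and 90.8 CPM in wild-type and between 89.9 and 145 CPM in *Lmx1a-/-* libraries (log2 fold change 0.68, FDR 0.0658).

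p53 is a transcription factor that is held at a low level in unstressed cells by the ubiquitin ligase Mdm2. Since Mdm2 is itself a p53 target, they form a feedback loop. DNA damage and other stress stabilize the protein, mostly without a change in its mRNA, and its targets then stop the cell cycle (*Cdkn1a*, which encodes the CDK inhibitor p21), start apoptosis (*Bax*, *Bbc3*, *Pmaip1*, *Perp*) or act in repair, redox balance and feedback. *Cdkn1a* is also switched on by signals other than p53, among them TGFβ and Smad signaling, and it rises in many cells that leave the cycle to differentiate.

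Between 19145952 and 36462780 reads per library were counted on genes, and mitochondrial genes took 20.6% to 27.6% of them. Levels are read counts scaled to library size by TMM (normalized CPM), and a false discovery rate (FDR) under 0.1 in edgeR's quasi-likelihood test was the threshold, with ± giving the SD over 5 embryos. Across all genes, 497 were lower in *Lmx1a-/-* CH (2.29%) and 373 were higher (1.72%). *Xist* lay between 4399 and 5169 CPM in wild-type embryos 2 to 5 and at or below 1.15 CPM in wild-type embryo 1 and the 5 mutants, in which Y-linked *Ddx3y* lay between 65.6 and 84.3 CPM. The sex chromosomes and the genotype are therefore nearly confounded, with wild-type embryo 1 as the one wild-type library without *Xist*. Of the CR cell markers 4 of 9 tested were lower and 1 was higher, and their summed level was 335 to 546 CPM in wild-type and 223 to 317 CPM in mutant libraries. Of the choroid plexus markers 2 of 10 were lower, with a median log2 fold change of -1.23 and sums of 128 to 488 against 147 to 228 CPM. The likelihood ratio test and DESeq2 each called 6 of these 10 lower, the newer quasi-likelihood dispersions called 3, and 8 had an unadjusted p under 0.05. Such a p was found for 16.4% of all genes, and DESeq2 called 976 of 21664 genes lower. No marker of either list was at 0 in all 10 libraries, and the part of these cells in the p53 genes was not tested. RNA was taken from pieces of tissue, so fewer cells of a type and less RNA per cell cannot be told apart in any value below.

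*Cdkn1a* (ENSMUSG00000023067, GRCm38 chr17:29090976-29100727, plus strand) was lower in the mutant CH. Wild-type embryos 1 to 5 had 276, 228, 170.0, 169 and 227 CPM of it, and *Lmx1a-/-* embryos 1 to 5 had 138, 89.0, 132, 46.7 and 34.1 CPM. Every mutant library lay below every wild-type library, which held for 2.27% of all genes, and mutant embryos 4 and 5 were the lowest. The log2 fold change was -1.28 (SE 0.33, 95% interval -1.98 to -0.58, FDR 0.0631), with means of 214 ± 45.2 and 87.9 ± 47.6 CPM. Wild-type embryo 1, the library without *Xist*, had the highest value. With 1 embryo left out the log2 fold change stayed between -1.51 and -1.07, but the call was near the threshold and was lost in several of these fits. Without wild-type embryo 1, 2 or 5 the FDR was 0.141, 0.119 and 0.102, and without mutant embryo 2 or 4 it was 0.126 and 0.136. With the choroid plexus marker level as a covariate the log2 fold change was -0.79 (FDR 0.898), and with *Xist* as a covariate it was -1.67 (FDR 0.332). The choroid plexus level (mean log2 CPM) was 3.18, 3.23, 1.71, 2.81 and 3.06 in wild-type embryos. In mutant embryos it was 1.61, 0.437, 2.00, 0.762 and 1.87. Only wild-type embryo 3 lay within the mutant range, so this covariate too is largely confounded with genotype.

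Promoter sequences of *Cdkn1a* and 2 of the p53 genes are shown because the question turns on direct targets of p53. The protein binds as a tetramer to a pair of repeats of 10 bases each. Windows of 250 bases before each annotated start (RefSeq, GRCm38.p6) were searched for the p53 consensus repeat in a pair, with at most 3 bases between the repeats, at most 1 mismatch in all and the core C and G of each repeat kept. The consensus is its own reverse complement, so that both strands were covered, and the limit of 1 mismatch was set after the matches were seen. Such a pair is found in 56 of all 32851 windows (0.17%). Windows were given for 8 of the 11 genes, *Cdkn1a* and 7 of the 10 p53 genes, and 2 of their 11 windows held the pair. Capitals mark the pair in the windows of *Cdkn1a* (chr17:29090729-29090978, plus strand) and *Ccng1* (chr11:40755287-40755536, minus strand), and the window of *Phlda3* (chr1:135765835-135766084, plus strand), whose values are given further on, is shown beside them.
Cdkn1a: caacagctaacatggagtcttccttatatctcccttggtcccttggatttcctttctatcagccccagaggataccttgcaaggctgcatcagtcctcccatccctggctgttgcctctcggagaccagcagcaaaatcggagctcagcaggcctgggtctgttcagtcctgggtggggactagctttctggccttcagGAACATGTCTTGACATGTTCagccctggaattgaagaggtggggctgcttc
Ccng1: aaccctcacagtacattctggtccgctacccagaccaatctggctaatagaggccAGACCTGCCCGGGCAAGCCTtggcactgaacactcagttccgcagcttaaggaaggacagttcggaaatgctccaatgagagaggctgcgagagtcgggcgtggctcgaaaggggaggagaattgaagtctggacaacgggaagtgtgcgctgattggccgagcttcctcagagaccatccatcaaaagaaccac
Phlda3: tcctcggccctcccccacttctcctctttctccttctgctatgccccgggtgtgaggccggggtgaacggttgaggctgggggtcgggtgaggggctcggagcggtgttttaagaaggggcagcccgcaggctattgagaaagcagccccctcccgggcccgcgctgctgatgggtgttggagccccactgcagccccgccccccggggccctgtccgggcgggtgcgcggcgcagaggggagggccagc
In *Cdkn1a* the pair lies 51 to 32 bases before the first of its 2 annotated starts, and in *Ccng1* it lies 195 to 176 bases before the start. The best pair in the *Phlda3* window has 5 mismatches. A match of letters is not a measured site, and these windows leave out the introns, where several p53 targets are known to be bound.

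*Trp53* (ENSMUSG00000059552, chr11:69580359-69591873, plus strand) did not pass the test. Wild-type embryos had 104, 91.5, 124, 116 and 85.2 CPM, in the order of their numbers as for all genes that follow, and *Lmx1a-/-* embryos had 110.3, 98.7, 113, 87.0 and 80.0 CPM. The groups overlapped over most of their ranges. With means of 104 ± 16.2 and 97.8 ± 14.4 CPM, *Trp53* had a log2 fold change of -0.09 (SE 0.12, FDR 0.769), and the 95% interval ran from -0.36 to 0.17. In linear terms the interval reaches from 21.9% below the wild-type level to 12.7% above it.

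*Mdm2* (ENSMUSG00000020184, chr10:117688875-117710758, minus strand), which encodes the ligase that degrades p53, gave the tightest comparison of the 10 genes. Its wild-type values were 101, 106, 97.6, 99.8 and 109.6 CPM, and its mutant values 118, 106, 92.4, 109.3 and 91.7 CPM. The highest and the lowest of the 10 libraries were both mutants. Its fitted log2 fold change was 0.0091 (SE 0.083, 95% interval -0.17 to 0.19, FDR 0.973), and the means were 103 ± 4.86 and 103 ± 11.3 CPM. In the 5 mutant libraries in which *Cdkn1a* dropped by 58.9%, the fitted difference of *Mdm2* was 0.633%, with an interval of -11.1% to 13.96%.

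*Ccng1* (ENSMUSG00000020326, chr11:40748552-40755311, minus strand) encodes cyclin G1, a p53-induced protein that recruits the phosphatase PP2A to Mdm2. It lay at 49.3, 50.2, 44.1, 55.3 and 57.8 CPM in wild-type and at 47.2, 47.1, 51.4, 45.1 and 48.0 CPM in mutant embryos. The 5 mutant values fell inside the wild-type range. The means were 51.3 ± 5.38 and 47.8 ± 2.30 CPM (log2 fold change -0.10, SE 0.088, 95% interval -0.29 to 0.085, FDR 0.605). *Ccng1* and *Cdkn1a*, whose windows both hold the pair of repeats shown above, thus had intervals that do not overlap.

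The genes of the mitochondrial death pathway came next. *Bax* (ENSMUSG00000003873, chr7:45461697-45466898, minus strand) encodes a protein that opens the outer mitochondrial membrane. It lay at 13.6, 10.96, 12.2, 16.3 and 9.79 CPM in wild-type and at 18.7, 7.61, 12.6, 13.1 and 9.88 CPM in mutant embryos, and again the highest and lowest libraries were both mutants. The means were 12.6 ± 2.52 and 12.4 ± 4.18 CPM (log2 fold change -0.017, SE 0.22, 95% interval -0.50 to 0.46, FDR 0.980).

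*Bbc3* (ENSMUSG00000002083, chr7:16308393-16318205, plus strand), which encodes the BH3-only protein PUMA, was near the lower end of what could be counted, with 5 to 31 reads per library. Its wild-type values were 0.448, 1.40, 0.647, 0.259 and 0.480 CPM and its mutant values 0.266, 0.543, 0.273, 0.554 and 0.591 CPM. Wild-type embryo 2 was high, and the other 9 libraries overlapped. The log2 fold change was -0.54 (SE 0.54, FDR 0.673), and its 95% interval of -1.69 to 0.62 holds both no difference and one as large as that of *Cdkn1a*.

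*Pmaip1* (ENSMUSG00000024521), which encodes NOXA, another BH3-only protein, had 14 to 82 reads per library. It lay at 1.38, 1.35, 1.56, 2.34 and 2.36 CPM in wild-type and at 0.798, 4.46, 1.06, 0.388 and 2.85 CPM in mutant embryos. The mutants spread to both sides of the wild-type range, with embryos 2 and 5 above it and the other 3 below. The means were 1.80 ± 0.509 and 1.91 ± 1.71 CPM (log2 fold change 0.068, SE 0.55, 95% interval -1.11 to 1.24, FDR 0.969).

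*Phlda3* (ENSMUSG00000041801, chr1:135766119-135769136, plus strand) stood apart from the other 9 genes. It encodes a small pleckstrin homology protein that competes with Akt for membrane lipids and so restrains Akt signaling. Its wild-type values were 2.91, 2.44, 3.09, 5.14 and 2.18 CPM, and its mutant values were 1.30, 1.74, 1.16, 1.16 and 0.139 CPM. Every mutant library lay below every wild-type library, with mutant embryo 5 (4 reads) far under the rest. Wild-type embryo 1, the one without *Xist*, lay above all 5 mutants. With means of 3.15 ± 1.17 and 1.10 ± 0.587 CPM, the difference was -1.52 on the log2 scale (SE 0.47, 95% interval -2.54 to -0.50). It missed the threshold, with an unadjusted p of 0.00658 and an FDR of 0.124 in edgeR's quasi-likelihood test. The call depended on the test: the FDR was 0.0416 in edgeR's likelihood ratio test, 0.0232 in DESeq2 and 0.0548 with the newer quasi-likelihood dispersions, and without mutant embryo 5 it was 0.0953 at a log2 fold change of -1.23. *Phlda3* lies 31.9 Mb from *Lmx1a* on the chromosome that carries the drJ allele, on which 5.6% of 1535 tested genes passed the threshold against 4.02% of all genes. How much of the difference comes from linked sequence of another strain was not tested.

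*Trp53inp1* (ENSMUSG00000028211, chr4:11156431-11174379, plus strand) encodes a stress protein that helps p53 to become phosphorylated and takes part in autophagy. It lay at 109.9, 99.2, 99.1, 75.0 and 129 CPM in wild-type and at 100.5, 99.998, 91.9, 83.4 and 79.7 CPM in mutant embryos, all 5 of the latter within the wild-type range. The means were 102.5 ± 19.7 and 91.1 ± 9.46 CPM (log2 fold change -0.17, SE 0.13, 95% interval -0.44 to 0.099, FDR 0.545).

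*Sesn2* (ENSMUSG00000028893, chr4:132492032-132510501, minus strand), a sestrin that senses leucine and lowers mTORC1 activity, lay at 7.35, 9.02, 5.47, 10.8 and 4.06 CPM in wild-type and at 6.48, 7.34, 7.09, 4.93 and 2.54 CPM in mutant embryos. Mutant embryo 5 was the lowest library, and the other mutants lay inside the wild-type range. The means were 7.34 ± 2.69 and 5.67 ± 1.99 CPM (log2 fold change -0.37, SE 0.31, 95% interval -1.04 to 0.30, FDR 0.606).

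*Zmat3* (ENSMUSG00000027663, chr3:32334792-32366014, minus strand) encodes a zinc finger RNA-binding protein that acts on splicing and mRNA stability. Its wild-type values were 114, 109.7, 101, 85.8 and 116 CPM and its mutant values 98.0, 105, 97.3, 83.9 and 94.3 CPM. The groups overlapped, with mutant embryo 4 just under the lowest wild-type library. The means were 105 ± 12.3 and 95.7 ± 7.69 CPM (log2 fold change -0.14, SE 0.093, 95% interval -0.34 to 0.065, FDR 0.511).

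**Figure D1:**
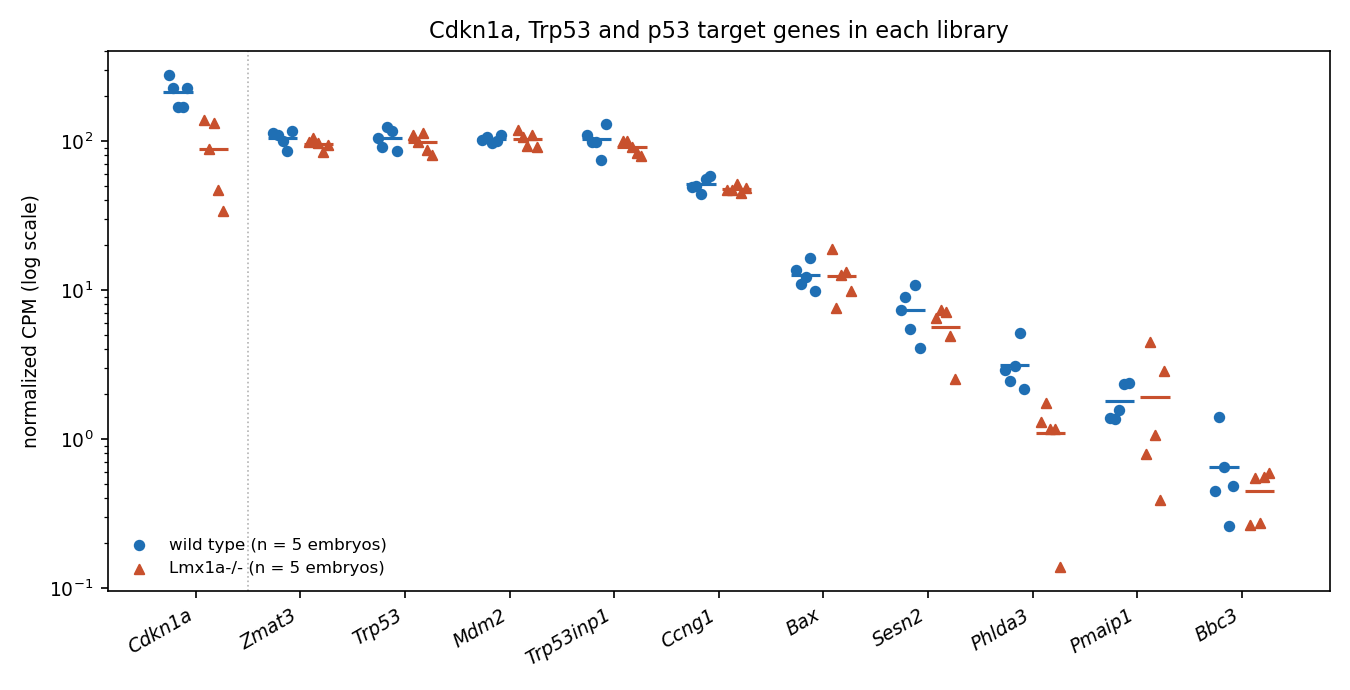
Normalized CPM (log axis) of *Cdkn1a* and of the 10 p53 genes in each library, with 1 point per embryo, circles for 5 wild-type and triangles for 5 *Lmx1a-/-* embryos, and lines at the group means. The groups separate for *Cdkn1a* and, at 0.139 to 5.14 CPM, for *Phlda3*, while the other 9 genes overlap.

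Counted together, 0 of the 10 genes were lower or higher past the threshold in edgeR's quasi-likelihood test, and 1 of them, *Phlda3*, was lower in the likelihood ratio test, in DESeq2 and with the newer dispersions. In all genes 2.29% were lower and 1.72% higher. At an unadjusted p under 0.05 the count was 1 of 10, against 16.4% of all genes. *Phlda3* was also the one gene of the 10 whose mutant libraries all lay below the wild-type libraries (2.27% of all genes), and none had all mutants above (2.17% of all genes). Of the 10 log2 fold changes 8 were below 0, with a median of -0.12 beside -0.0049 for all genes, of which 10962 of 21664 were below 0.

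The intervals say how large a change the data still allow. For 6 genes, *Trp53*, *Mdm2*, *Ccng1*, *Bax*, *Trp53inp1* and *Zmat3*, the whole 95% interval lay within 0.5 of 0 on the log2 scale. For 8 genes it left out -1.28, the point value of the log2 fold change of *Cdkn1a*, and the 2 whose intervals held that value were *Phlda3* and *Bbc3*. That point value has an interval of its own, -1.98 to -0.58. The intervals of *Pmaip1* and *Sesn2*, which reach -1.11 and -1.04, overlap it. Those of the 6 genes within 0.5 of 0 do not.

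**Figure D2:**
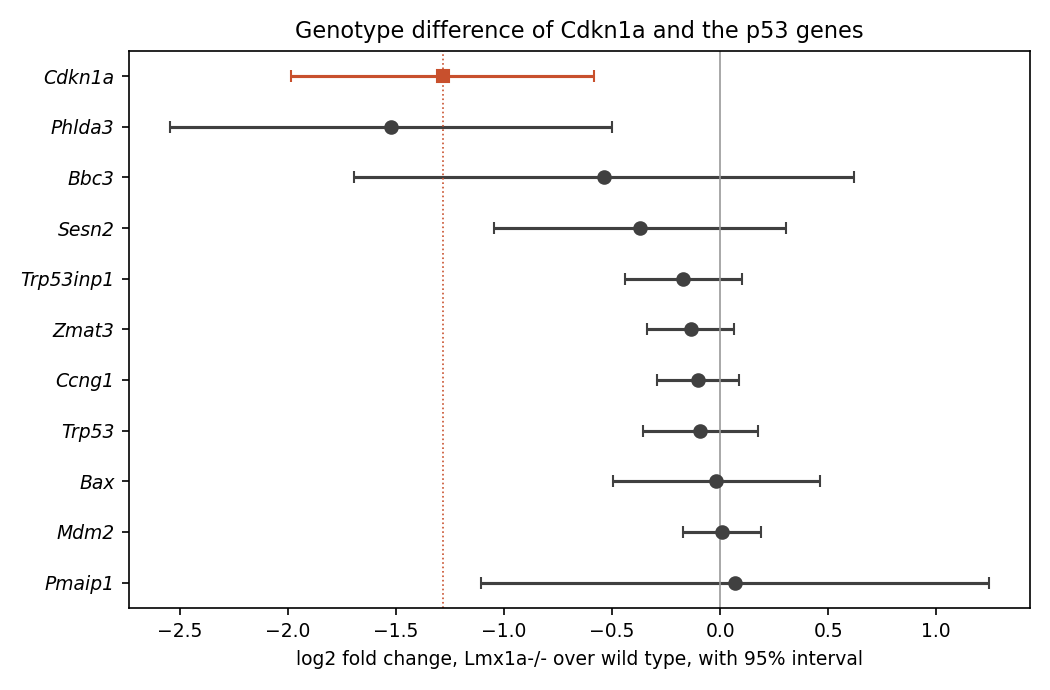
Log2 fold change of *Lmx1a-/-* over wild type for *Cdkn1a* (square) and the 10 p53 genes (circles), with 95% intervals as bars, the dotted line at the value of *Cdkn1a* and the solid line at 0. 6 intervals stay within 0.5 of 0, those of *Bbc3* and *Pmaip1* are wide, and that of *Phlda3* alone among the 10 genes excludes 0.

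The difference between *Cdkn1a* and each gene was tested within libraries, by the log2 ratio of the 2 counts, which is free of the scaling between libraries. Since *Cdkn1a* was known to be lower, these ratios bear on how the other genes differ from it and are no further evidence on *Cdkn1a*. In wild-type CH there were 2.05 reads of *Cdkn1a* for each read of *Mdm2* (geometric mean), and in mutant CH 0.741. The log2 ratio of *Cdkn1a* to *Mdm2* was 1.45, 1.10, 0.80, 0.76 and 1.05 in wild-type embryos and 0.23, -0.25, 0.51, -1.23 and -1.43 in mutants. All mutants lay below all wild-type embryos, and mutant embryos 4 and 5, with the least *Cdkn1a*, were the lowest. The difference was -1.47 (two-sided exact permutation test of the genotype labels, p = 0.00794, the smallest this design allows, adjusted p = 0.0159 over 10 ratios).

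The ratio to *Trp53* fell by 1.37, to *Ccng1* by 1.36, to *Zmat3* by 1.33 and to *Trp53inp1* by 1.31, each without overlap and with the same exact p of 0.00794 and adjusted p of 0.0159. The ratio to *Bax* fell by 1.40 (exact p = 0.0238, adjusted p = 0.0397) and that to *Sesn2* by 1.08 (exact p = 0.0317, adjusted p = 0.0454), both with overlap. An unadjusted exact p under 0.05 with a lower ratio was thus found for 7 of the 10 genes, against 69.9% of all other tested genes, and mutants below wild type without overlap for 5 of the 10, against 41.7%. The ratio falls for most genes that differ little between the genotypes, and these counts say nothing particular to p53 targets. The ratios to *Bbc3* (-1.07, exact p = 0.159, adjusted p = 0.198) and *Pmaip1* (-1.08, exact p = 0.317, adjusted p = 0.353) were about as far from 0 but spread too widely to be told from it. The ratio to *Phlda3* was the exception in direction, at 0.33 (exact p = 0.532, adjusted p = 0.532), so that a difference between *Phlda3* and *Cdkn1a* in their change was not detectable.

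**Figure D3:**
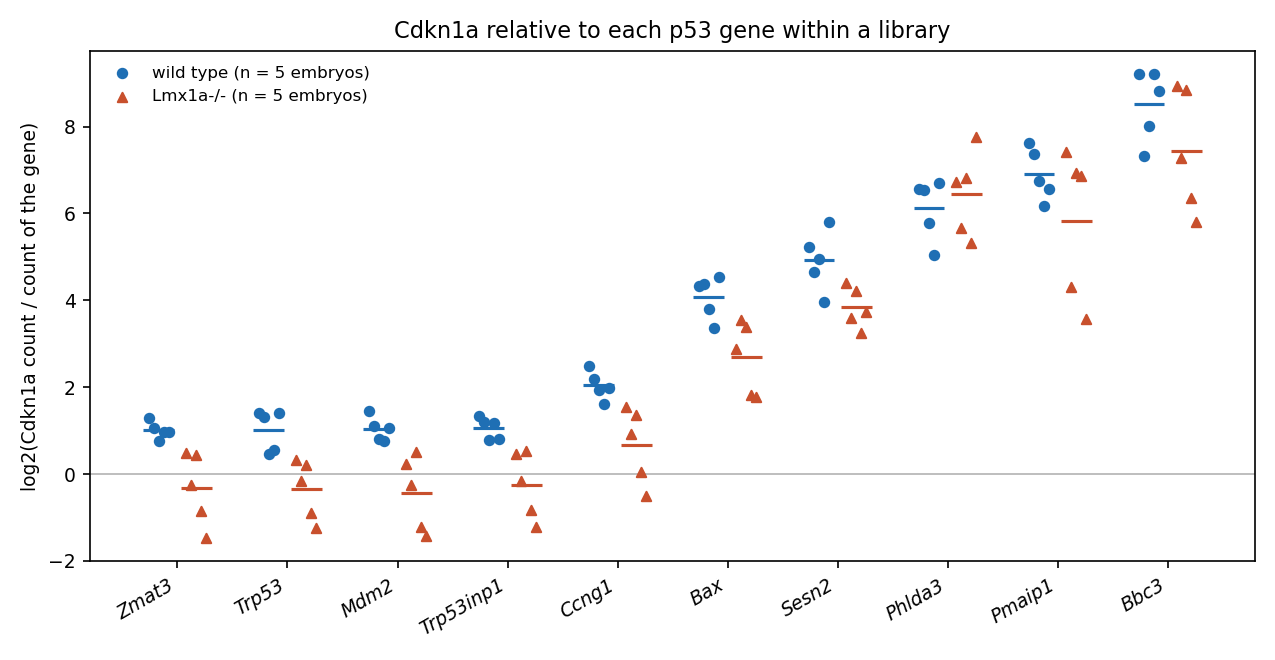
Log2 of the *Cdkn1a* count over the count of each p53 gene in each library, with circles for 5 wild-type embryos, triangles for 5 *Lmx1a-/-* embryos and lines at the group means. The mutants lie below the wild type without overlap for *Zmat3*, *Trp53*, *Mdm2*, *Trp53inp1* and *Ccng1*, and the ratio to *Phlda3* does not fall.

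Whether embryos with less *Cdkn1a* also had less of the other genes was asked within genotypes, as a correlation of the deviations from the group means over 10 libraries. Of the 10 values of Pearson's r 8 were above 0, and none of the 10 correlations passed a Benjamini-Hochberg adjustment in an exact test over 14400 orders within genotypes. *Trp53inp1* came closest (Pearson's r 0.57, permutation p = 0.0218, adjusted p = 0.218; Spearman's rho 0.73, permutation p = 0.0249), and its r was 0.46 without mutant embryos 4 and 5, the libraries with *Cdkn1a* farthest from the median. *Zmat3* had an r of 0.51 (permutation p = 0.0717, adjusted p = 0.304; rho 0.54, permutation p = 0.0831), and 0.47 without these libraries. The r of *Sesn2* was 0.58 (permutation p = 0.0911, adjusted p = 0.304; rho 0.43, permutation p = 0.254) and -0.17 without them. For *Phlda3* the r of 0.58 (permutation p = 0.186, adjusted p = 0.342; rho 0.28, permutation p = 0.525) rested on those 2 embryos and was -0.68 without them. The r of *Trp53* went likewise from 0.50 (permutation p = 0.172, adjusted p = 0.342; rho 0.47, permutation p = 0.208) to -0.29. For the remaining 5 genes r was 0.35 for *Mdm2*, 0.22 for *Ccng1*, 0.27 for *Bax*, -0.38 for *Bbc3* and -0.13 for *Pmaip1* (permutation p from 0.205 to 0.797, adjusted p from 0.342 to 0.797), and without these embryos it was 0.20, 0.19, 0.36, -0.092 and -0.71.

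The genes were also compared with each other in the same way. Of the 45 pairs 23 had an r above 0, the median r was 0.014 and 0 passed the adjustment. The pair with the smallest p was *Trp53inp1* and *Zmat3* (r 0.87, permutation p = 0.00243, adjusted p = 0.109, and rho 0.87, permutation p = 0.0025). Its r was 0.71 without wild-type embryos 4 and 5, the libraries with *Trp53inp1* farthest from the median. *Phlda3* and *Sesn2* followed (r 0.82, permutation p = 0.00875, adjusted p = 0.197, and rho 0.76, permutation p = 0.0136). Their r was 0.36 without mutant embryo 5 and wild-type embryo 4, the libraries with *Phlda3* farthest from the median. In log2 CPM over all 10 libraries, the genes most like *Trp53* were *Rps9* (r 0.93), *Zfp467* (0.92) and *9530034E10Rik* (0.92), given as a description of libraries that share tissue and depth.

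Levels per kilobase of exon put the 10 genes in order in wild-type CH. *Trp53* was highest with 25.8 ± 4.01 CPM per kb, followed by *Mdm2* (20.2 ± 0.957), *Trp53inp1* (15.8 ± 3.04), *Ccng1* (14.6 ± 1.53), *Zmat3* (9.20 ± 1.07) and *Bax* (7.98 ± 1.60). *Sesn2* (2.11 ± 0.775), *Phlda3* (2.02 ± 0.750), *Pmaip1* (0.658 ± 0.186) and *Bbc3* (0.304 ± 0.208) came last. Neighbours in this order had overlapping wild-type ranges except between *Ccng1* and *Zmat3*, *Bax* and *Sesn2*, and *Phlda3* and *Pmaip1*. By its means the mutant CH had the same order, but there *Phlda3* (0.705 ± 0.376) and *Pmaip1* (0.699 ± 0.625) were nearly level. In both genotypes, then, *Trp53* and *Mdm2* had the highest means. The BH3-only genes *Pmaip1* and *Bbc3* came last in wild type, and in mutants *Pmaip1* could not be told from *Phlda3*.

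The 10 genes are a small part of the p53 program, and 54 further targets were listed by role, *Cdkn1a* among them. Of the 48 that could be tested, 7 were lower (14.6%, against 2.29% of all genes) and 0 were higher in edgeR's quasi-likelihood test, with a median log2 fold change of -0.13 and 31 below 0. At an unadjusted p under 0.05, 10 were lower and 3 higher, while 16.4% of all genes had such a p in either direction. DESeq2 called 7 lower and 2 higher, and over all 21664 genes it called 976 lower and 790 higher. Without *Cdkn1a*, whose lower level was known beforehand, 6 of 47 were lower in edgeR's quasi-likelihood test (12.8%), with a median of -0.11. The list was chosen with earlier results of these data known, so these shares are a description only. The count of 7 fell when any of several libraries was left out. With wild-type embryo 1 or 2 left out it was 2, with wild-type embryo 4 left out 3 and with wild-type embryo 5 left out 4. Leaving out mutant embryo 2, 4 or 5 gave 2, 1 and 3. It was 0 with *Xist* or the choroid plexus markers as a covariate.

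Of 11 tested genes of cell cycle arrest 2 were lower, *Cdkn1a* and *Gtse1*, with a median of -0.10. *Gtse1*, which encodes a microtubule-bound protein of G2 that can carry p53 out of the nucleus, fell from 26.9 ± 3.90 to 18.0 ± 3.49 CPM (log2 fold change -0.58, SE 0.15, FDR 0.0674), and passed in 4 of 10 fits that left out 1 embryo (highest FDR 0.157). Among well-known arrest targets that did not pass, chosen after their values were seen, *Btg2* was at 67.4 ± 7.84 and 66.1 ± 7.24 CPM (log2 fold change -0.028, FDR 0.926) and *Gadd45a* at 6.28 ± 1.70 and 5.88 ± 1.07 CPM (log2 fold change -0.10, FDR 0.873).

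Of 12 tested genes of cell death 4 were lower (33.3%), *Eda2r*, *Pidd1*, *Spata18* and *Perp*, with a median of -0.26, and 11 had a log2 fold change below 0. *Eda2r*, a TNF receptor family member on the X chromosome, lay at 9.855, 11.8, 7.47, 4.57 and 12.4 CPM in wild-type and at 5.52, 4.02, 3.51, 3.30 and 2.02 CPM in mutant embryos. The groups overlapped by 1 mutant, and wild-type embryo 1, without *Xist* like the mutants, lay above all 5 of them. The means were 9.21 ± 3.23 and 3.67 ± 1.27 CPM (log2 fold change -1.33, SE 0.30, FDR 0.0410), and the call held in 9 of 10 fits that left out 1 embryo (highest FDR 0.102).

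*Pidd1*, which encodes the scaffold of the PIDDosome that activates caspase 2, lay at 39.2, 41.2, 29.0, 34.2 and 39.0 CPM in wild-type and at 22.5, 11.9, 31.3, 18.9 and 17.05 CPM in mutant embryos. Mutant embryo 3 lay inside the wild-type range and the other 4 below it. The mean went from 36.5 ± 4.91 to 20.3 ± 7.25 CPM (log2 fold change -0.84, SE 0.21, FDR 0.0535), and the gene passed in 6 of 10 fits (highest FDR 0.131).

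*Spata18*, which encodes a mitochondrial quality protein, was scarce, at 0.784, 1.49, 0.647, 0.986 and 0.776 CPM in wild-type and at 0.066, 0.054, 0.273, 0 and 0.278 CPM in mutant embryos, without overlap (FDR 0.0759, 4 of 10 fits). It had 19 to 33 reads in wild-type and 0 to 8 in mutant libraries, so it passed the filter on low counts only through the wild type. The counts of lower targets and of lower death genes include it. *Perp*, a desmosome protein of epithelia that p53 and p63 induce, had a log2 fold change of -2.54 (FDR 0.0913), but wild-type embryo 4 alone held 85.7 CPM, while the other wild-type libraries held 4.73 to 16.6 and the mutants 1.69 to 8.07 CPM. Without that embryo the log2 fold change was -1.25 (FDR 0.214). In the same library *Trp63*, the p63 gene of surface epithelia, lay at 152 CPM against 0.924 to 24.1 in the other 9, and *Sfn*, another epithelial p53 target, at 12.6 CPM against 0 to 2.07.

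Of 19 tested genes of repair and metabolism 1 was lower, *Polh*, the translesion DNA polymerase eta, from 24.2 ± 2.85 to 17.2 ± 3.03 CPM without overlap (log2 fold change -0.49, SE 0.14, FDR 0.0867, 3 of 10 fits, highest FDR 0.193). The median of this group was 0.043. Without passing the threshold, 2 of its excision repair genes had all mutants above all wild-type libraries (2.17% of all genes). These were *Ercc5*, at 43.6 ± 2.99 and 52.5 ± 2.26 CPM (log2 fold change 0.27, FDR 0.1001), and *Xpc*, at 15.1 ± 2.09 and 19.7 ± 1.60 CPM (log2 fold change 0.38, FDR 0.142). Of 6 tested feedback and secreted targets 0 passed in edgeR's quasi-likelihood test or DESeq2, 0 had an unadjusted p under 0.05 and the median was -0.030. *Trim32* (log2 fold change 0.19, FDR 0.337), *Pml* (-0.37, FDR 0.344) and *Rap2b* (-0.14, FDR 0.641) had the smallest p among them.

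**Figure D4:**
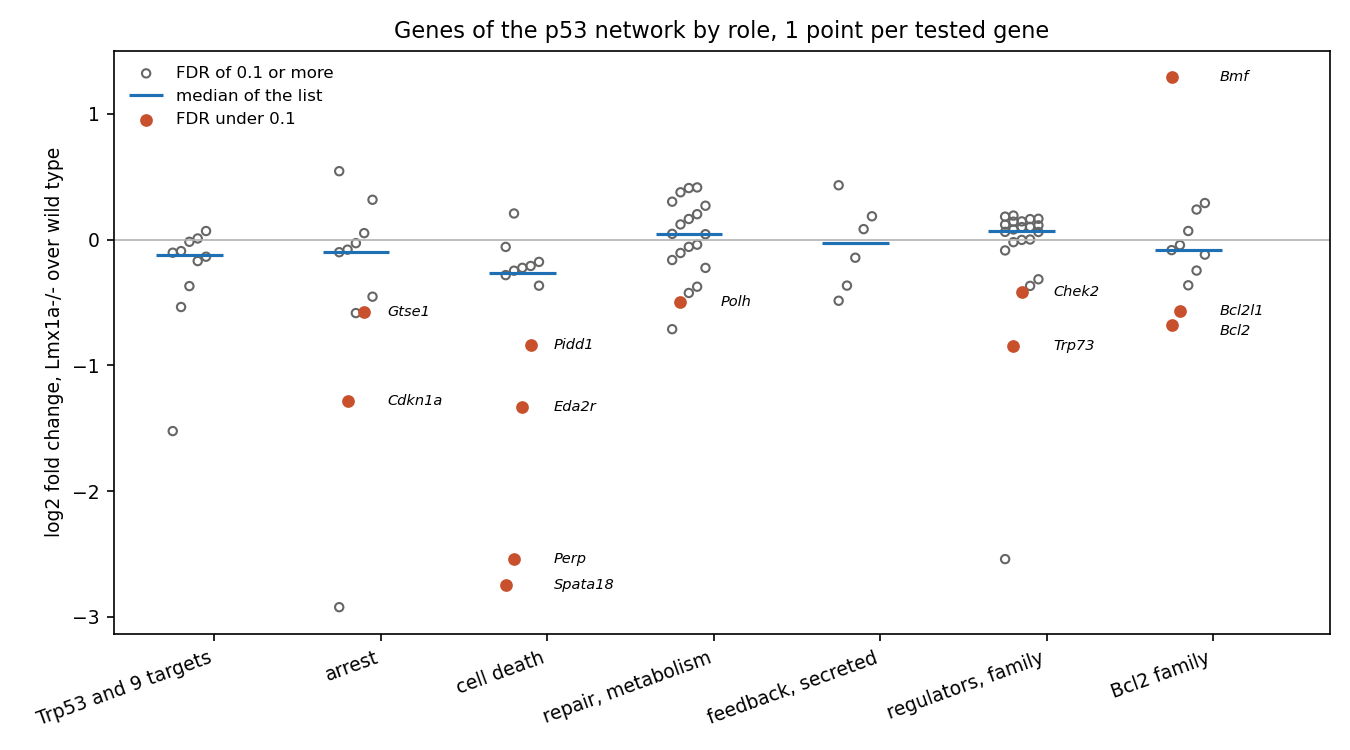
Log2 fold change of *Lmx1a-/-* over wild type for each tested gene of the p53 network, grouped by role, with filled points for an FDR under 0.1, open points for the rest and lines at the medians. The genes past the threshold lie on both sides of 0 only in the Bcl2 family, where *Bmf* is at 1.29, and the medians of the 7 groups lie between -0.26 and 0.071.

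Upstream of the targets, 22 regulators and relatives of p53 were tested. Their median log2 fold change was 0.071, 2 were lower and 0 were higher, against 2.29% and 1.72% of all genes. At an unadjusted p under 0.05 the counts were 3 and 2, while 16.4% of all genes had such a p in either direction. In DESeq2 the counts were 2 and 0, against 976 and 790 of all 21664 genes. *Mdm4*, the partner of Mdm2, was at 335 ± 22.5 and 360 ± 17.3 CPM (log2 fold change 0.10, FDR 0.490), named here after its value was seen. The checkpoint kinase gene *Chek2* lay at 21.1, 19.2, 21.4, 19.4 and 21.5 CPM in wild-type and at 14.1, 17.9, 13.7, 14.95 and 16.1 CPM in mutant embryos, without overlap. The means were 20.5 ± 1.13 and 15.4 ± 1.70 CPM (log2 fold change -0.42, SE 0.11, FDR 0.0740), and the call held in 2 of 10 fits that left out 1 embryo (highest FDR 0.150).

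*Trp73* encodes p73, a relative of p53 that binds the same repeats and that CR cells are known to make. It lay at 99.7, 87.2, 53.5, 80.2 and 90.2 CPM in wild-type and at 46.0, 37.6, 60.6, 47.3 and 36.3 CPM in mutant embryos. Mutant embryo 3 lay above wild-type embryo 3, and the other libraries did not overlap. The mean went from 82.1 ± 17.5 to 45.6 ± 9.74 CPM (log2 fold change -0.85, SE 0.17, FDR 0.0208), and the call held in all 10 fits that left out 1 embryo. It was lost with the choroid plexus marker level as a covariate (log2 fold change -0.33, FDR 0.907) and with *Xist* as a covariate (log2 fold change -1.09, FDR 0.214), and *Chek2* likewise did not pass with either (FDR 0.650 and 0.448). With *Trp73* left out, 3 of the 8 other CR cell markers tested were lower and 1 was higher, with a median of -0.81, and their sum was 281 to 456 CPM in wild-type and 175 to 270.3 CPM in mutant libraries. The part of CR cell number in the lower *Trp73* and in the lower targets was not tested. Exons of *Trp73* share 280 bases with an antisense gene that had 115 reads in all.

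Downstream of p21, 15 genes that p53 is known to lower through p21 and the DREAM complex, most of them of G2 and mitosis, had a median log2 fold change of -0.063. None passed in edgeR's quasi-likelihood test, and 1 had an unadjusted p under 0.05, against 16.4% of all genes. DESeq2 called 1 lower, and over all 21664 genes it called 976 lower. The smallest p belonged to *Birc5*, which encodes survivin, at 52.6 ± 7.33 and 41.1 ± 5.57 CPM (log2 fold change -0.36, FDR 0.144), *Plk1* (-0.42, FDR 0.313) and *Cdk1* (-0.25, FDR 0.323).

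Among 9 tested genes of collection stress and early response, a list of immediate early and heat shock genes that handling can raise, 0 passed in edgeR's quasi-likelihood test or DESeq2 and 0 had an unadjusted p under 0.05. Their median was -0.27, and the summed level was 78.9 to 129 CPM in wild-type and 76.5 to 127 CPM in mutant libraries. *Egr1* (log2 fold change -1.22, FDR 0.336), *Hspa1b* (-1.41, FDR 0.401) and *Dnajb1* (-0.27, FDR 0.488) had the smallest p of that list.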

How the data were processed

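RNA-seq libraries of laser-captured CH were analysed from 5 wild-type and 5 *Lmx1a-/-* embryos, with groups and embryo numbers taken from the sample labels and 1 embryo per library, so that p-values measure the spread between embryos. The deposited values are read counts per gene, without normalization. According to the study's methods and the submitters' processing notes, the authors checked reads with FastQC 0.11.8, trimmed them with Trimmomatic, aligned them with STAR 2.7.1a to GRCm38 with Ensembl annotation and counted them with HTSeq 0.11.2. The strand setting is not given in the sources used here, so whether reads of genes that overlap on opposite strands were kept apart cannot be told. Exons of the 10 p53 genes overlap 1 other gene, which had 0 reads, and those of *Cdkn1a* overlap an antisense gene with 1 read.

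Of 52508 rows 281 repeat another row and were dropped, and 0 columns were left unused. Genes with 10 or more counts in 3 or more libraries were scaled by TMM and tested by edgeR's quasi-likelihood test with trended dispersions (R 4.3.3, edgeR 4.0.16, limma 3.58.1), with a Benjamini-Hochberg FDR over all 21664 genes. The SE is the log2 fold change divided by the square root of F, and the 95% interval uses the degrees of freedom of the fit. Ratios used counts plus 0.5 and an exact permutation test, and correlations used log2 CPM with a prior count of 0.5. Positions come from GENCODE M21. The fits and exact tests were tested on simulated data. No 2 libraries of 1 genotype agreed within sampling noise, since the smallest chi-square of such a pair was 17.3 per degree of freedom.

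The 10 genes, the gene lists and the rule for naming genes were chosen with earlier results of these data known. Named are the 10 genes and *Cdkn1a*, up to 6 genes past the threshold in each list or else the 3 with the smallest p, *Lmx1a*, *Xist* and Y-linked genes, and the 3 genes most like *Trp53*. Genes named outside this rule are said to be so or are given beside a library that stood apart. Alternatives were RLE, upper quartile and library size scaling, 2 other filters, the likelihood ratio test, DESeq2 1.42.0, robust and newer dispersions, a block for the embryo number, *Xist* or choroid plexus covariates, mitochondrial genes left out, repeated rows kept, an FDR of 0.05, other pseudocounts for the ratios and each embryo left out.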

Additional observations from a re-analysis of the deposited data

Results flagged for a closer look

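In 44 groups of 5 embryos, the 2 genotypes for each of 22 genes, the lowest and highest values were compared with the rest of their group. A library was set apart when its gap to the nearest other value was over 0.71 of the range of the group, which chance gives in about 1 in 20 groups, and 2 were found. *Perp* in wild-type embryo 4 was at 85.7 CPM while the other 4 wild-type embryos lay between 4.73 and 16.6 CPM, and the higher *Trp63* and *Sfn* of that library are given beside it above. *Bmf* in wild-type embryo 5 was at 6.06 CPM, below the 8.35 to 9.06 CPM of the other 4 wild-type embryos, and so farther from the mutants than they were.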

How the results depend on the processing

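The 10 p53 genes gave 0 higher calls in all 25 alternatives, and 9 of them gave no call at all, with *Bbc3* left untested in 2. *Phlda3* was the exception: 1 gene was lower with the likelihood ratio test, DESeq2 and the newer quasi-likelihood dispersions, and the count was 0 to 1 when 1 embryo was left out. Its log2 fold change lay between -2.24 and -1.23. For *Cdkn1a* the log2 fold change lay between -1.67 and -0.79, and the call was lost with robust dispersions (FDR 0.160), with *Xist* or the choroid plexus markers as a covariate and at an FDR of 0.05. Over the fits without 1 embryo it lay between -1.51 and -1.07, and 5 of 10 passed. The count of lower targets among the 48 others (7) became 4 with the replicate block, 0 with either covariate, 1 at an FDR of 0.05 and 1 to 8 without 1 embryo. That of higher targets (0) became 1 with upper quartile scaling, a filter of 1 CPM in 5 libraries, robust dispersions or the newer dispersions and 2 with DESeq2, and was 0 to 1 without 1 embryo. Among all genes the 497 lower calls became 805 with the likelihood ratio test, 976 with DESeq2, 24 with *Xist*, 11 with the choroid plexus markers, 251 at an FDR of 0.05 and 261 to 604 without 1 embryo. The 373 higher calls became 790 with DESeq2, 248 with the block, 1 with *Xist*, 5 with the choroid plexus markers, 197 at an FDR of 0.05 and 190 to 455 without 1 embryo. The cause of these changes was not tested. The ratios of *Cdkn1a* to the 7 genes kept their side of the threshold of 0.1 in all alternatives, and that to *Bbc3* lay between -1.44 and -0.66 without 1 embryo, passing without mutant embryo 1 (adjusted p = 0.0992, exact permutation test). With library size scaling the correlations of *Trp53inp1* (r 0.66) and *Zmat3* (r 0.67) with *Cdkn1a* passed (adjusted p = 0.0701, permutation test). Embryo numbers are shared by the genotypes, and deviations of same-numbered libraries correlated by -0.084 to 0.0070. The labels do not say whether same-numbered embryos shared a litter, and these correlations cannot exclude it. With the replicate block the 7 ratios all had an exact p of 0.0625, the smallest that 5 differences allow, and adjusted p = 0.0893 over the 10. At 4 to 105 reads for *Phlda3*, 5 to 31 for *Bbc3* and 14 to 82 for *Pmaip1*, depth limits these 3 genes most.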

Other observations

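The Bcl2 family, whose members bind Bax and set when it acts, held calls in both directions. Of 11 tested members 2 were lower and 1 was higher, against 2.29% and 1.72% of all genes. The median log2 fold change was -0.084. *Bmf*, a BH3-only protein that is tied to the cytoskeleton and released by loss of attachment, lay at 8.88, 8.43, 9.06, 8.35 and 6.06 CPM in wild-type and at 14.4, 18.9, 22.4, 24.3 and 19.8 CPM in mutant embryos. Every mutant lay above every wild-type library. With means of 8.16 ± 1.21 and 19.97 ± 3.75 CPM the gene rose by 1.29 on the log2 scale (SE 0.17, FDR 0.00157, edgeR's quasi-likelihood test). Of the genes that restrain apoptosis, *Bcl2* lay at 68.4, 91.2, 60.3, 78.3 and 71.3 CPM in wild-type and at 46.1, 40.3, 36.3, 57.8 and 50.3 CPM in mutant embryos, also without overlap. Its mean went from 73.9 ± 11.6 to 46.1 ± 8.42 CPM (log2 fold change -0.68, SE 0.14, FDR 0.0215). *Bmf* and *Bcl2* passed in all 10 fits that left out 1 embryo. Neither passed with *Xist* as a covariate (*Bmf* 1.17, FDR 0.271; *Bcl2* -0.54, FDR 0.507) or with the choroid plexus marker level (*Bmf* 1.17, FDR 0.282; *Bcl2* -0.58, FDR 0.777). *Bcl2l1*, which encodes Bcl-xL, fell from 31.7 ± 4.54 to 21.4 ± 4.00 CPM (log2 fold change -0.57, SE 0.15, FDR 0.0674), and passed in 3 of 10 fits without 1 embryo (highest FDR 0.151) and with neither covariate (FDR 0.552 and 0.921). *Bcl2* lies on chromosome 1 with *Lmx1a*, and its exons share 558 bases with an antisense gene that had 367 reads in all.

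Of the 4 CDK inhibitors other than *Cdkn1a* that could be tested 0 passed in edgeR's quasi-likelihood test or DESeq2. An unadjusted p under 0.05 was found for 1 of them, against 16.4% of all genes. This was *Cdkn2c*, at 8.84 ± 2.40 and 6.52 ± 0.737 CPM (log2 fold change -0.44, FDR 0.268). *Cdkn1c*, which encodes p57, was at 43.5 ± 17.5 and 51.3 ± 7.72 CPM (log2 fold change 0.24, FDR 0.629), and *Cdkn2d* had a log2 fold change of -0.17 (FDR 0.812). *Cdkn2a*, which encodes the p53 activator p19Arf, had 0 reads in all 10 libraries.

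Of the other cells that the cut tissue could hold, mesenchyme and meninges gave 2 lower genes of 7 (*Lum* and *Dcn*, median -0.60). The cortical neuroepithelium gave 1 higher gene of 5 (*Emx2*, median 0.43). Among the CH markers 5 of 10 were lower and 1 higher (median -0.43), the higher one being the mutated gene *Lmx1a* itself. Across all genes 2.29% were lower and 1.72% higher. Endothelium (median -0.37), neurons (0.23), microglia (0.28) and red blood cells (-0.91) gave 0 genes past the threshold in edgeR's quasi-likelihood test, with 1, 2, 1 and 4 genes at an unadjusted p under 0.05. Such a p was found for 16.4% of all genes, and DESeq2 called 976 of 21664 genes lower. DESeq2, edgeR's likelihood ratio test and the newer quasi-likelihood dispersions each called 3 of the 6 red blood cell genes lower, and their sum was 550 to 1197 CPM in wild-type and 233 to 517 CPM in mutant libraries. The part of these cells in the p53 genes was not tested.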
